A study of Mus musculus with 5 samples.

Results

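The genes described here are 53 homeobox regulators that lie outside the Hox clusters, chosen by name from 13 subfamilies and found in full among the 21779 protein-coding genes of the RefSeq gene table. The assay was ChIP-seq, which sequences the DNA pulled down with a protein, here the zinc finger protein CTCF, in NIH3T3, a mouse fibroblast line. All cells carried H2B-mCherry, the rtTA3G transactivator and a CDX2 gene under the TRE3G promoter, which doxycycline switches on. The series has 2 CTCF libraries given doxycycline (CTCF Dox, labelled 500 ng/µL for 6 h), 2 CTCF libraries without it (CTCF noDox) and 1 input library without it, 5 in all. The values are 1 list of 22756 peak intervals, merged over the conditions and holding no height, score or sample name, so the depth behind a peak is unknown and the effect of doxycycline was not tested. Expression of fibroblast markers was not analysed here, since a list of positions holds no expression.

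Homeobox genes encode transcription factors that bind DNA through a homeodomain and set the identity of body regions, organs and neurons. Many of those outside the Hox clusters stand alone or in small linked groups, surrounded by long stretches of non-coding DNA that hold distant enhancers, and they are off in most cells. CTCF, together with cohesin, limits which enhancers can contact which promoters, and its sites often mark the borders of such regulatory domains.

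Most of the genes had CTCF nearby. Few had it at the gene itself, at shares close to those of matched genes. A peak midpoint lay in the gene body or within 100 kb on either side of it, the domain used throughout, at 47 of the 53 genes, or 88.7% (exact 95% binomial interval 77.0 to 95.7%, for the counting of genes only), against 81.8% of all protein-coding genes and 72.2% of genes of like length and surroundings. The domains held 169 distinct peaks in 11.0 Mb, since neighbours share some of them. A gene had a median of 2 peaks in its domain, with quartiles of 1 and 5 and a range of 0 to 18, while all protein-coding genes had a median of 3, with quartiles of 1 and 6. In the body itself 10 genes (18.9%) held a peak, against 29.5% of all protein-coding genes and 17.1% of genes of like length and surroundings. Within 1 kb of a gene end 4 genes (7.55%) had one, against 12.0% of all and 9.35% of the matched genes.

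Matched genes are the protein-coding genes of the same body-length class (10 classes of equal size) and the same class of neighbour number (5 classes), counted as the other protein-coding genes that overlap the domain. Of the 53 genes, 37 fell in the lowest class, with 0 to 2 neighbours. Above the median of their matched genes lay 31 genes (58.5%), against 43.7% of all protein-coding genes under the same rule, and 16 (30.2%) lay below, against 40.0%. The excess depended on the matching: 15 lay above with matching on length alone, against 43.0% of all genes, and 18 with matching on length, neighbours and chromosome, against 42.1%. Under both of these the share of members above was smaller than the share of all genes. The matching with chromosome, called matching also on chromosome below, used 2 classes of neighbour number in place of 5. It thus changed the neighbour matching too, and the part of each change was not tested. In the top 10% of their matched genes were 5 (9.43%), Dlx3, Dlx4, Six5, Six6 and Emx1, against 8.43% of all protein-coding genes, which is close to the background. With matching also on chromosome 3 genes were in the top 10%, Six5 and Emx1 of those 5 and in addition Msx2. In the lowest 10% stood 1 gene (1.89%), Pbx4, against 3.43% of all protein-coding genes, and it left that class with matching also on chromosome.

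**Figure D1:**
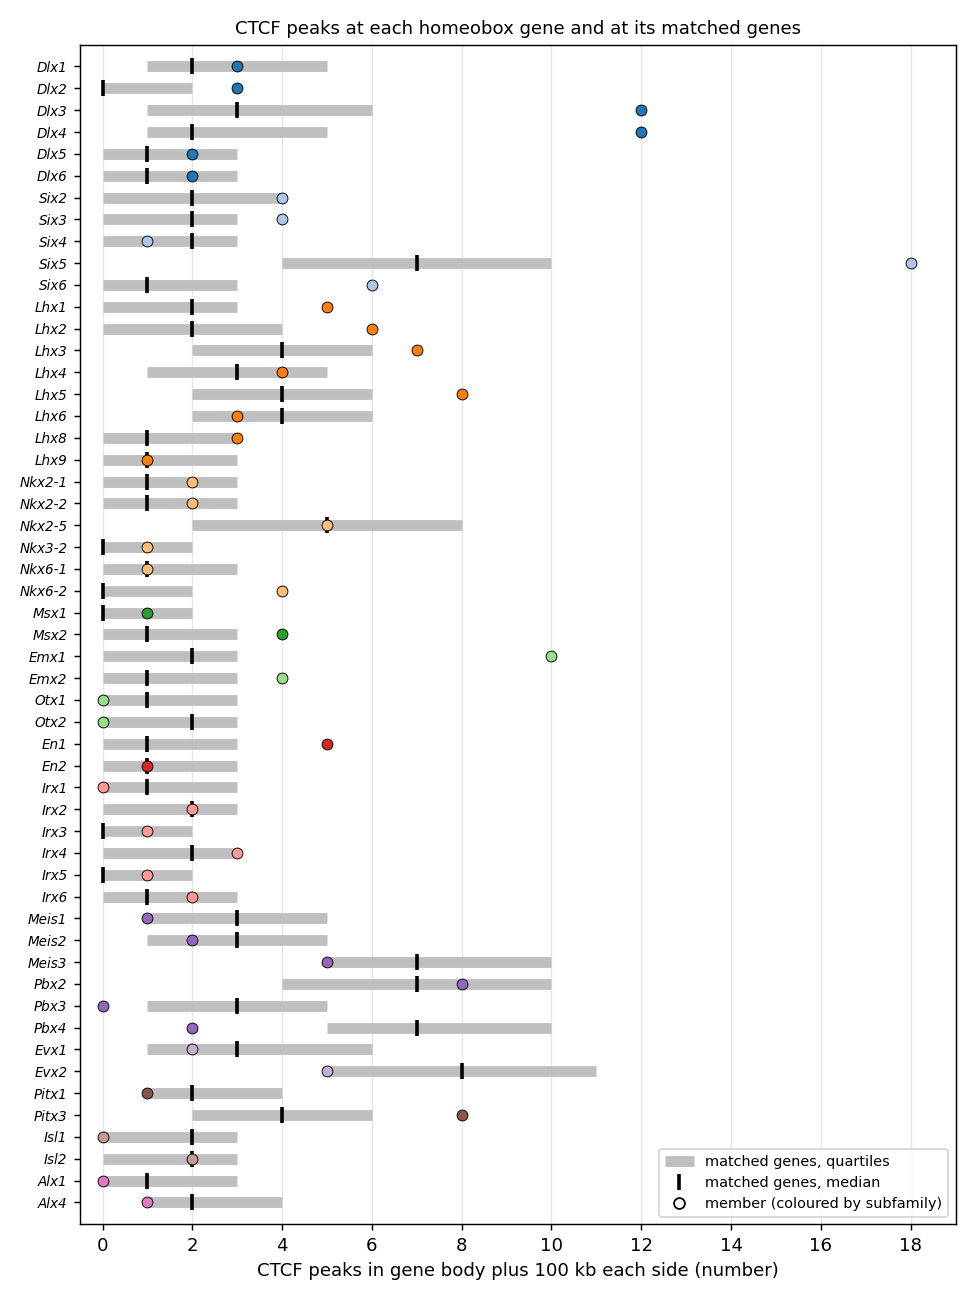
CTCF peaks in the body plus 100 kb on each side of the 53 genes (points, coloured by subfamily), with the median (black tick) and quartiles (grey bar) of each gene's matched genes. Six5 with 18 peaks and Dlx3 and Dlx4 with 12 each lie farthest to the right, and 6 genes lie at 0.

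The genes were often flanked on one side only. Peaks lay within 100 kb on one side and not on the other at 26 of the 53 genes (49.1%), against 26.6% of all protein-coding genes and 30.9% of the matched genes. On both sides they lay at 20 (37.7%), against 52.8% of all and 39.2% of the matched, and on neither side at 7 (13.2%), against 20.6% and 29.9%. With a flank of 250 kb the one-sided number fell to 17, against 16.6% of all protein-coding genes. The one-sided genes with most flanking peaks were Lhx2 with 6, Evx2 with 5, and Six3, Emx2, Msx2 and Pitx3 with 4 each. Pitx3 had 4 more in its body. For the 39 genes whose strand the promoter table gives, 67 peaks lay upstream and 71 downstream, with 9 genes flanked only upstream, 11 only downstream and 17 on both sides.

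**Figure D2:**
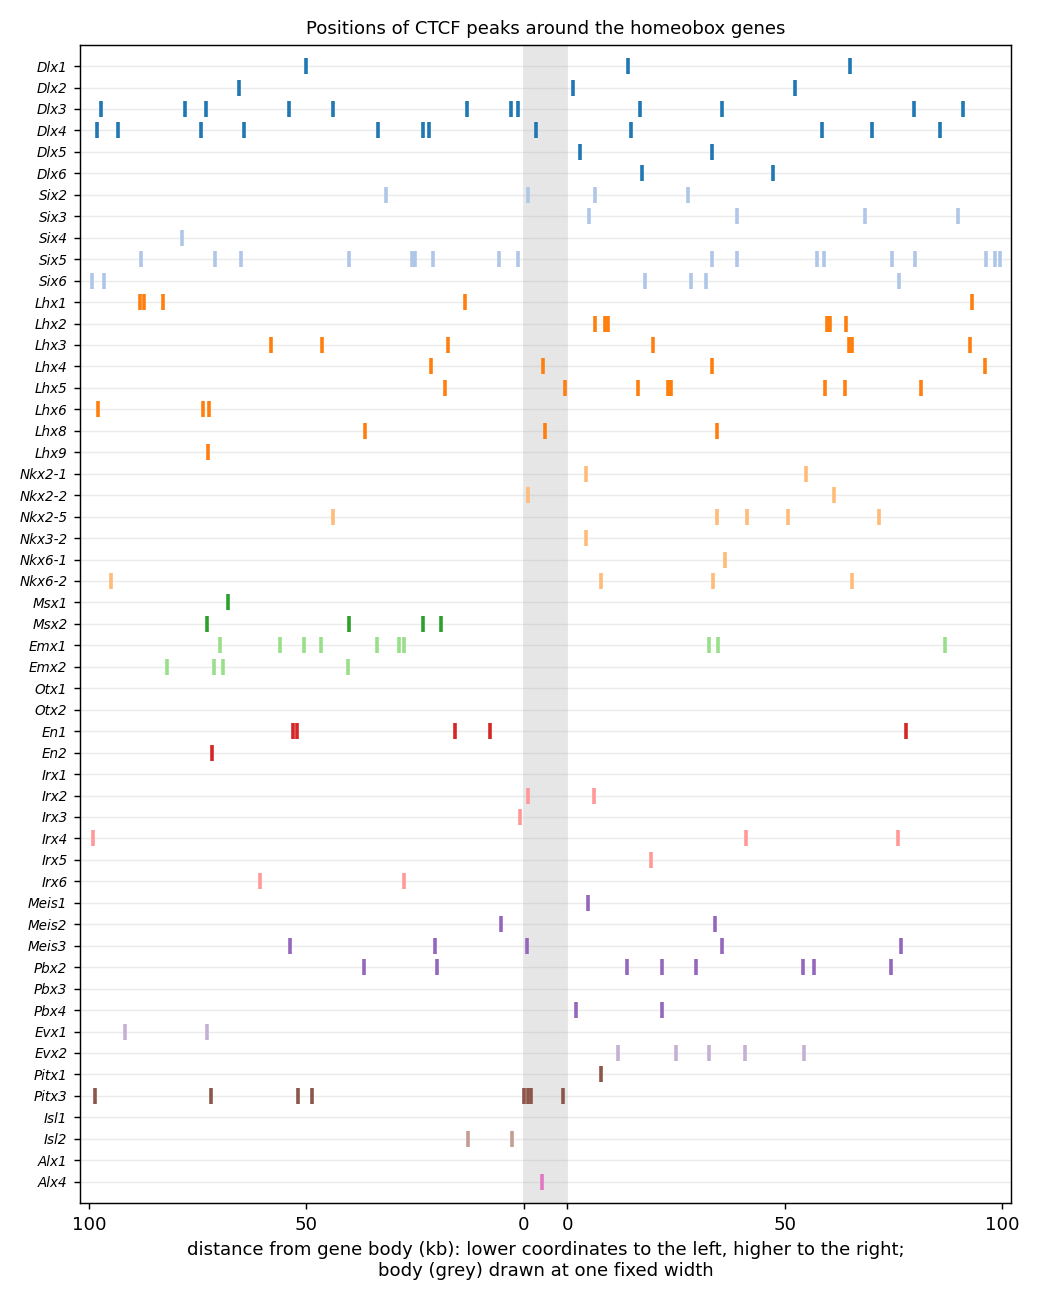
Position of every CTCF peak (vertical marks) within 100 kb of the 53 genes, 1 row per gene, as distance from the gene body in kb; the body is drawn at a fixed width in grey. Marks are missing on one side for 26 genes, and the rows of Otx1, Otx2, Irx1, Pbx3, Isl1 and Alx1 are empty.

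By distance, the density of peaks in the members was above that of matched genes in each ring outside the body. It was 2.08 against 1.90 per 100 kb within 10 kb and 1.89 against 1.51 from 10 to 25 kb. From 25 to 50 kb it was 1.51 against 1.38, and from 50 to 100 kb 1.60 against 1.24. Only the main matching was used here, and a peak shared by linked genes was counted at each. Inside the body the values were 1.14 against 1.69 per 100 kb, but their weighting differed. The member value pooled all bodies, so the long Meis1, Meis2 and Pbx3, without a body peak, weighed heavily. The matched value gave each member equal weight. A peak in the body was found at 18.9% of members, against 17.1% of matched genes. Of the 169 distinct peaks, 13 lay in a member's body, 58 (34.3%) in the body of another protein-coding gene, 26 (15.4%) only in another kind of annotated gene such as a long non-coding RNA, and 72 (42.6%) outside genes. Over all peaks on the chromosomes 49.1% lay in other protein-coding bodies, 8.92% only in other annotated genes and 41.9% outside genes. Members with few protein-coding neighbours had few peaks. The 8 genes with no protein-coding neighbour had a median of 1 peak, against 0 for all protein-coding genes without a neighbour. The 14 genes with 1 neighbour and the 15 with 2 had medians of 2, as did all genes of those neighbour numbers. The 10 genes with 3 to 5 neighbours a median of 5.5, and the 6 genes with 6 to 13 neighbours a median of 5, against 3 and 5.

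The Dlx genes, vertebrate relatives of the fly gene Distal-less, stand in 3 close pairs, and all 6 lay above the median of their matched genes. Against the matched mean, though, Dlx1 had 3 peaks to 3.13, and Dlx5 and Dlx6 had 2 each to 1.98. Under either of the other matchings only Dlx3 and Dlx4 lay above. Dlx1, Dlx2, Dlx5 and Dlx6 lay below with matching on length only, and with matching also on chromosome Dlx1 lay below and the others level. No pair had a peak in the gap between its genes, which measured 9.43 kb for Dlx1 and Dlx2, 15.2 kb for Dlx3 and Dlx4 and 9.83 kb for Dlx6 and Dlx5. An empty gap was common for gaps of like length between neighbouring genes, of which 24.6%, 29.3% and 24.9% held a peak. Dlx1 and Dlx2, regulators of forebrain inhibitory neurons on chromosome 2 (71528113 to 71533981 and 71543408 to 71546754), shared 3 peaks. These lay 50.1 kb below Dlx1, at 71547914 to 71548240 on the far side of Dlx2, 1.3 kb upstream of its start site, and 52.3 kb above Dlx2. The pair was thus flanked on both sides by peaks shared between the genes, with 70.1 kb free of peaks around both bodies.

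Dlx5 and Dlx6, regulators of the jaw, bone and limb on chromosome 6 (6877801 to 6882068 and 6863334 to 6867970), shared 2 peaks, both on the Dlx5 side, 3.0 and 33.3 kb from that gene. On the Dlx6 side the nearest peak was 573.3 kb away. Dlx3, a gene of skin, tooth and placenta, and its neighbour Dlx4 on chromosome 11 (95120117 to 95125296 and 95140447 to 95146294) had 12 peaks each, 11 of them shared, 13 in all. The matched medians were 3 and 2. Dlx3 had peaks 1.4 and 2.9 kb below its body, and Dlx4 held 1 in its body at 95141955 to 95142216, 1.6 kb from its lower end. Against matched genes of chromosome 11, a chromosome dense in peaks, the median was 6 and 21.1% of the 38 matched genes had 12 or more, so the pair left the top 10%.

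Six2, Six3, Six4, Six5 and Six6, relatives of the fly gene sine oculis, ranged from 1 to 18 peaks, and 4 of the 5 lay above their matched medians, also with matching on chromosome, or 2 with matching on length only. Six3, a gene of the forebrain and eye, and Six2, which maintains nephron progenitors in the kidney, lie 36.5 kb apart on chromosome 17 (85613608 to 85626191 and 85662736 to 85688254). They shared all 4 of their peaks. The first stood in the gap at 85631074 to 85631285, 5.0 kb from Six3 and 31.6 kb from Six2. The second stood in the body of Six2 at 85665026 to 85665308, 2.4 kb from its lower end, which is its 3′ end. The others lay 6.4 and 27.7 kb above Six2, on its upstream side. The side of Six3 away from Six2 was empty for 322.3 kb. Of 3459 gaps of like length between neighbouring genes, 40.7% held at least 1 peak, so a peak in the gap is not rare.

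Six6, a gene of the retina and pituitary, and Six4, expressed in muscle precursors, lie 155 kb apart on chromosome 12 (72939882 to 72944899 and 73099609 to 73114031) with 1 other protein-coding gene between them. The gap held 4 peaks, 2.59 per 100 kb, a number that 10.1% of 1405 gaps of like length reached. They stood 18, 28.4, 32.0 and 76.2 kb from Six6. The last was the single peak of Six4, 78.5 kb away from it. Six6 had 6 peaks against a matched median of 1, but against matched genes of chromosome 12 14.6% had as many. Six5 on chromosome 7 (19094544 to 19098549), which adjoins the myotonic dystrophy kinase gene Dmpk, had the most peaks of all, 18, with 9 on each side and none in its body. It has 13 protein-coding neighbours, and its matched genes had a median of 7. Only 2.05% of 682 matched genes had 18 or more, and 0.592% of 169 on the same chromosome. The nearest peak stood 1.3 kb upstream of its start site, at 19093130 to 19093410, where it lay inside Dmpk.

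The Irx genes, the Iroquois genes of heart, limb and neural patterning, form one group of 3 on chromosome 13 and another on chromosome 8, and their 6 domains held 0 to 3 peaks each and 9 in all. Against matched genes, which also have few neighbours, 4 of the 6 lay above the median and Irx1 below. With matching also on chromosome 2 lay above and 1 below, and with matching on length only all 6 lay below. In the main matching the 6 had a mean of 1.50 peaks, below the mean of 1.88 for their matched genes. Irx3 and Irx5 lay above there with 1 peak each against a median of 0, a number that 48.7% of their matched genes reached. On chromosome 13 Irx1 (71958232 to 71963723) stood in 1167 kb with no peak, the interval between the 2 peaks nearest to it, and the 661 kb between Irx1 and Irx2 held none, as did 32.5% of 493 gaps of like length. Irx2 (72624430 to 72634196) had 1 peak in its body at 72625271 to 72625521, 966 bp from its lower end and 3.4 kb upstream of its start site in the promoter table, and another 6.2 kb above the gene. The 625 kb from Irx2 to Irx4, a gene of the heart ventricle (73259589 to 73269622), held 3 peaks, at 6.2, 399.0 and 526.3 kb from Irx2. So of the gaps on chromosome 13 one was empty and the other was not.

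On chromosome 8, Irx3 (91798511 to 91801654) had 1 peak at 91797669 to 91797842, 755 bp from its lower end, which is its 3′ end. The 556 kb to Irx5 (92357796 to 92361456) held 2 peaks, 261.8 and 314.4 kb from Irx3, near the middle of the gap. The 313 kb to Irx6 (92674289 to 92680956) held 3, at 19.3 kb from Irx5 and at 60.6 and 27.5 kb from Irx6. Gaps of like length had medians of 1 peak in both cases. The gaps between Irx genes on chromosome 8, and that between Irx2 and Irx4, therefore all held peaks. Each held more than the median of 1 peak in gaps of like length, but such numbers are not rare. At least as many peaks were held by 45.2% of the gaps like Irx3 to Irx5 and by 24.1% of those like Irx5 to Irx6. The 3 peaks between Irx2 and Irx4 equalled the upper quartile of 3 in gaps of like length. The densities of these Irx gaps, 0.360, 0.959 and 0.480 per 100 kb, were below the 1.54 per 100 kb of the members' domains together. Those domains are centred on genes and often include other genes, so they are not a like comparison for these gaps. None of these Irx gaps held another protein-coding gene.

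**Figure D3:**
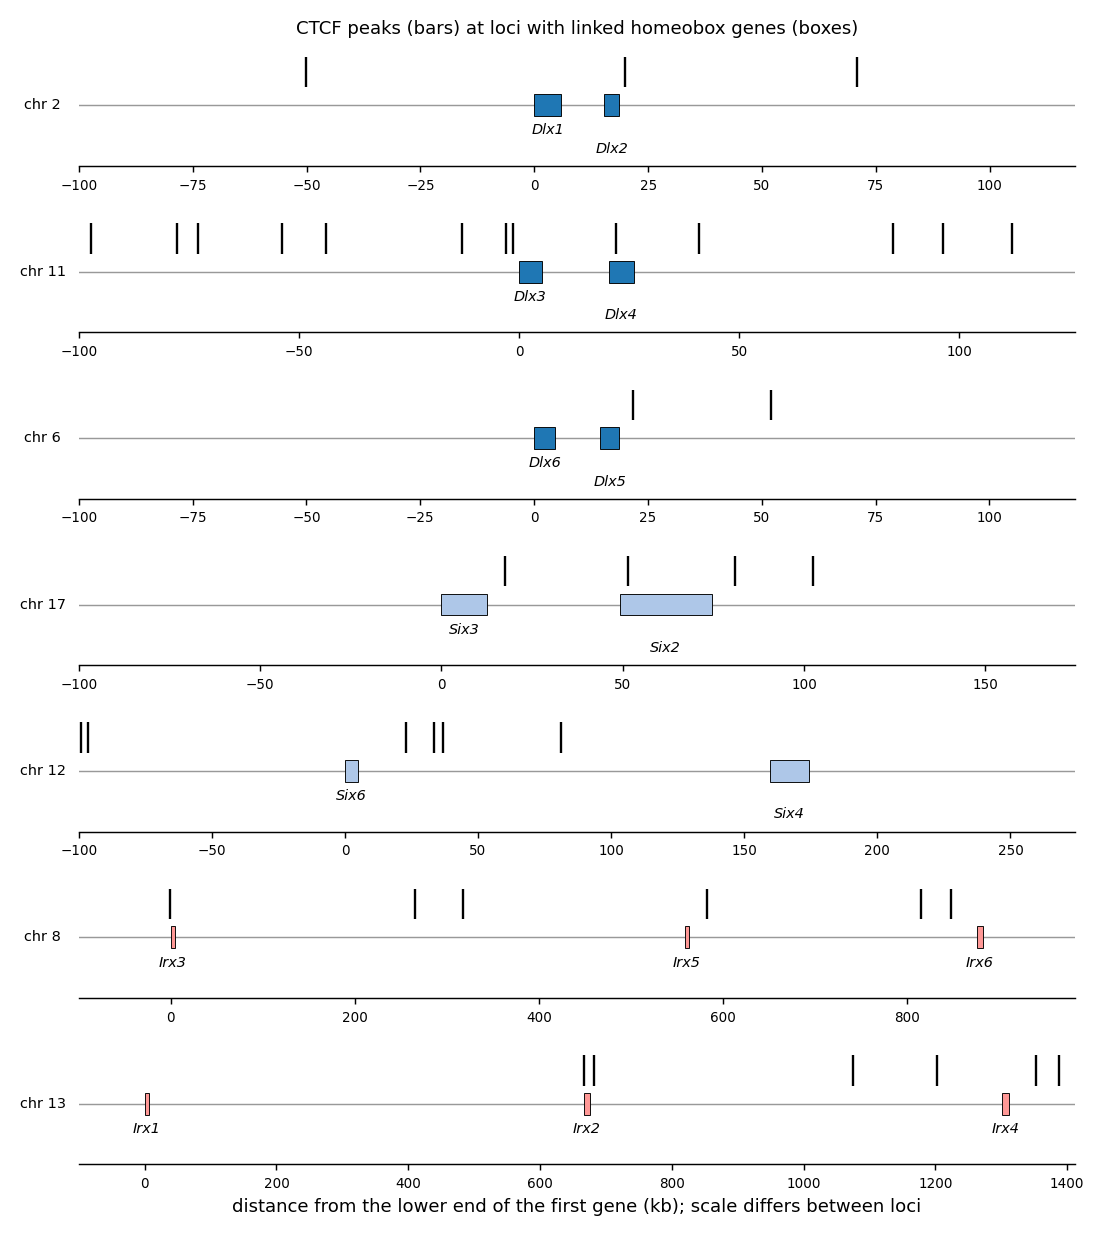
CTCF peaks (bars) and linked homeobox genes (boxes) at 7 loci, with 100 kb on each side; the axis is distance in kb from the lower end of the first gene and its scale differs between loci. No Dlx gap holds a peak, the Six3 to Six2 gap holds 1, the Six6 to Six4 gap 4, and the Irx1 to Irx2 gap none.

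The Lhx genes, which encode LIM-homeodomain factors of neurons, pituitary and gonad, had 1 to 8 peaks, and 6 of the 8 lay above their matched medians, or 5 with matching also on chromosome and 4 with matching on length only. Lhx5, a forebrain gene on chromosome 5 (120431886 to 120441457), led with 8. One stood in its body at 120440793 to 120441085, 518 bp from the higher end, and 6 more on that side lay 16.2 to 81.4 kb away, against 1 on the other. Lhx3, a gene of pituitary and motor neurons on chromosome 2, had 7, with 3 on one side and 4 on the other, and its close relative Lhx4 on chromosome 1 had 4. Lhx2, a gene of cortex, eye and hair follicle on chromosome 2 (38339271 to 38369737), had 6 peaks in 2 groups of 3, at 6.4 to 9.4 kb and at 59.7 to 64.2 kb above the gene. Its other side was empty for 390.3 kb. Lhx1, a gene of the head and kidney, had 5. The fewest stood at Lhx9, a gonad gene with 1 peak 72.6 kb away, and at Lhx6 and Lhx8, genes of ventral forebrain neurons, with 3 each. Lhx8 had 1 of its 3 in the body, as did Lhx4, while the nearest peak to Lhx6 was 72.4 kb away. Lhx6 was the single Lhx gene below its matched median, and Lhx9 was level with it.

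Lhx6 and Pbx3 lie within 2 Mb of each other, but 23 protein-coding genes stand between them and their domains shared no peak.

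Among the Nkx genes, tissue regulators related to the fly NK genes, Nkx2-5, the cardiac gene on chromosome 17, had most peaks with 5, level with its matched median. Nkx6-2, a gene of oligodendrocytes, had 4 against a matched median of 0. The fewest stood at Nkx3-2, a gene of the axial skeleton, and Nkx6-1, a gene of pancreatic beta cells, with 1 each, 4.4 and 36.2 kb away. Nkx2-1, the gene of thyroid and lung on chromosome 12, had 2, of which the nearer lay 4.4 kb upstream of its start site. Nkx2-2, a gene of pancreatic islets and the ventral neural tube, had 2, 1 of them in its body on chromosome 2 at 147177783 to 147179097. Of the 6 Nkx genes 4 lay above the matched median and none below. This turned with the matching: 1 lay above and 4 below with matching also on chromosome (Nkx6-2 above, Nkx2-1 level), and likewise 1 above and 4 below with matching on length only (Nkx2-5 above, Nkx6-2 level).

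The Msx and En pairs each held a gene with 4 or more peaks and a gene with 1, both Emx genes had 4 or more, and neither Otx gene had any. Msx2, a gene of skull and tooth on chromosome 13, had 4 peaks, all on one side, and Msx1, its relative on chromosome 5, had 1, 68.0 kb away. Msx1 lay above its matched median but below it under both other matchings. Emx1, a gene of the cerebral cortex on chromosome 6 (85187931 to 85204463), had 10, with 7 on one side and 3 on the other and none within 27.5 kb. Its matched median was 2, and 1.53% of 392 matched genes had 10 or more, or 3.45% of 58 on the same chromosome. Emx2, of cortex and urogenital tract on chromosome 19, had 4, all on one side and 40.4 kb or farther from the gene. Otx1 and Otx2, which pattern the anterior head, had none, and the nearest peaks were 436.1 and 162.7 kb away. En1, a gene of the midbrain and hindbrain border and the ventral limb, had 5, the nearest 7.7 kb upstream, and En2, its partner in the midbrain and hindbrain, had 1 at 71.6 kb.

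The Meis and Pbx genes encode TALE homeodomain cofactors of Hox proteins and lay mostly below their matched genes, 5 of 6, also with matching on chromosome, and 4 of 6 with matching on length only, where Meis3 lay above. 3 of them are the longest genes described here. Meis1 (139224 bp) had 1 peak against a matched median of 3, at 4.9 kb from its higher end, which is its start side. Meis2 (206274 bp) had 2 against 3, and Pbx3 (200589 bp) had none in its domain of 400.6 kb, as few as or fewer than all of its 1279 matched genes, of which 17.7% also had none. None of the 3 long genes held a peak in its body. Pbx4, expressed in the testis, had 2 against a matched median of 7, and 7.19% of its 167 matched genes had 2 or fewer. With matching also on chromosome, 20.5% of 44 matched genes had 2 or fewer. Pbx2 on chromosome 17, in the gene-dense histocompatibility region, had 8 peaks against 7.

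Meis3 on chromosome 7 (16174012 to 16186510) had 5 peaks against a matched median of 7, and it was the single member with a peak over its promoter among the 39 with a promoter window in the RefSeq table (GRCm38.p6, 47 windows of 250 bases before to 50 after a start). Of all protein-coding genes listed there, 4.83% had a window that overlapped a peak, against 2.56% here. The peak, at 16174946 to 16175177, ended 217 bases before the start site. The 250 bases before that start, chr7:16175145-16175394 on the plus strand, are shown because they include the 33 bases (capitals) that lie inside the peak.

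Meis3 promoter: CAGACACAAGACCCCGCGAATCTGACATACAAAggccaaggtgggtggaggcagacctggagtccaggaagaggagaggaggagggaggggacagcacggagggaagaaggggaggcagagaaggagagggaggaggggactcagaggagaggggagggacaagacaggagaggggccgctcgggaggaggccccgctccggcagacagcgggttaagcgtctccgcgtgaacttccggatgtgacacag

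A core of the CTCF motif, spelled CCANNAGNNGGC and searched on both strands, had no match in this window. It was found in 1 of the 47 member windows (2.13%), against 2.34% of all 21263 windows of protein-coding genes. Among all windows that overlapped a peak 15.6% held it, against 1.76% of the others. The member was Lhx4, whose window overlapped no peak. The match lies on chr1:155742020-155742049, read on the minus strand, the strand of the gene, with the core (on the opposite strand) in capitals and its first base 13 before the start. That start lies inside the gene as the gene table draws it (155698031 to 155751726).

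Lhx4 core: agggggccaGCCAGCTTGTGGagtcctccc

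These letters are a description of the sequence, not a mapped site, and the sequences of the other peaks were not used here.

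Start sites of the 39 genes had a peak within 50 and 100 kb more often than those of all protein-coding genes, at a similar median distance. Matched genes were not used here. The 39 leave out Otx1, Irx1, Pbx3 and Alx1, which had no peak in their domains, and also the peak-rich Dlx3, Dlx4 and Lhx5. The median distance from a start to the nearest peak was 19.8 kb, against 23.4 kb for 17492 protein-coding genes, and 14 (35.9%) had one within 10 kb, against 30.9%. Within 50 kb 31 did (79.5%), against 66.8%, and within 100 kb 37 (94.9%), against 78.4%. Of the 14 nearest peaks within 10 kb, 11 lay upstream of the start. Over all genes 60.1% did.

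Evx1 and Evx2, relatives of the fly gene even-skipped, lie at the ends of the HoxA and HoxD clusters, and both were below their matched medians, with 2 peaks against 3 and 5 against 8. Evx2 was level with its matched genes with matching also on chromosome and above them with matching on length only. All of these peaks stood inside the neighbouring Hox cluster. The 2 of Evx1 on chromosome 6 were among the 4 peaks of HoxA, 72.9 and 91.7 kb away, and the 5 of Evx2 on chromosome 2 were the 5 peaks of HoxD, 11.6 to 54.5 kb away. The gaps of 52.6 kb between Evx1 and Hoxa13 and of 6.70 kb between Evx2 and Hoxd13 held none. On the other side, the nearest peak stood 172.1 kb from Evx1 and 352.5 kb from Evx2. The peak-free interval around Evx2 measured 373 kb, where its matched genes without a body peak had a median of 53.4 kb and 5.03% had as long a one.

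Pitx3, a gene of the lens and of midbrain dopamine neurons on chromosome 19 (46135281 to 46148325), was the member with most peaks in its body, 4 of its 8. Its matched median was 4, or 10 with matching also on chromosome. They measured 287 to 514 bp. Of these, 3 stood 0.1, 1.2 and 2.1 kb from its lower end, the 3′ end, where the gene overlaps the end of Elovl3, and the fourth 1.2 kb from the higher end, downstream of the start site. Pitx1, a gene of the hindlimb and pituitary, had 1 peak, 7.7 kb away. Isl1, a gene of motor neurons, heart and pancreas, had none in its domain and stood in 1261 kb with no peak, the longest such interval of the 43 genes without a body peak. Isl2, its relative in motor neurons, had 2, at 2.6 and 12.8 kb on its upstream side. Alx1 and Alx4, genes of the face and limb, had none and 1, the latter in the body of Alx4, 16.8 kb from its lower end.

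Long intervals without CTCF were no more frequent here than at matched genes. Among the 43 members without a body peak the interval between the nearest peaks on both sides had a median of 250 kb, and 9 stood in one of 500 kb or more (Isl1, Irx1, Otx1, Meis1, Nkx3-2, Pbx3, Dlx5, Dlx6 and Isl2), where matched genes without a body peak gave 37.2%. The interval exceeded the matched median at 19 of the 43. Only Evx2 and Pbx4, at 325 kb, were in the longest 10% of their matched genes.

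Other homeobox genes and forkhead genes, which encode a separate family of developmental regulators, lay above their matched genes somewhat more often than the members did, and Hox genes less often, but these differences were not tested. Of 60 other homeobox genes, 41 (68.3%) lay above the matched median, of 44 forkhead genes 33 and of 39 Hox genes 11 (28.2%). The share of all protein-coding genes was 43.7%. Only the main matching was used for these groups, and the members' share changed with the matching. Peaks on one side only were found at 18 of the 60, 16 of the 44 (36.4%) and 15 of the 39 (38.5%). The members had 49.1% and all protein-coding genes 26.6%. Median numbers of peaks were 4, 4 and 5, against 2 for the members. Neighbours within each group share peaks, so the genes are not independent.

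**Figure D4:**
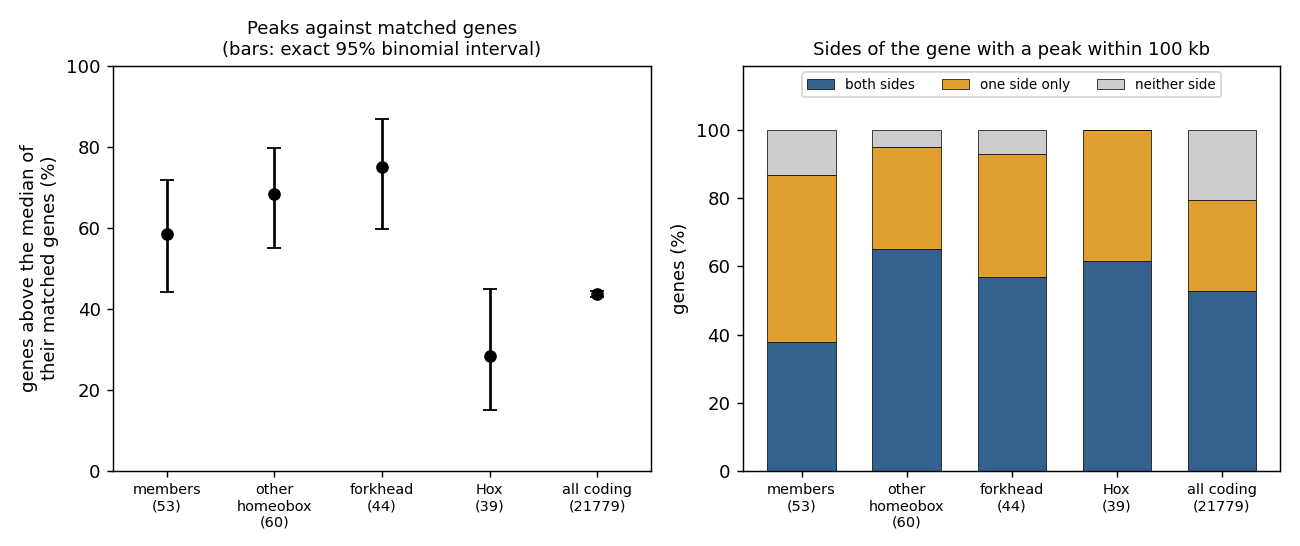
Left, the share of genes above the median of their matched genes in each gene group, with exact 95% binomial intervals; right, the shares of genes with peaks within 100 kb on both sides, on one side only and on neither. The members stand at 58.5% on the left, against 43.7% of all protein-coding genes, with the main matching only. On the right they have the largest one-sided share of the 5 groups shown, 49.1%.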

How the data were processed

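CTCF was measured in 4 immunoprecipitations (2 with doxycycline, 2 without) and 1 input. The authors deposited 1 list of peak intervals, merged over conditions per the file's name. STAR, Picard and MACS2, with builds mm10 and dm6, are named without roles per the submitters' processing notes, and Drosophila chromatin was added per the labels' protocols. For versions, the peak threshold and how the list was merged, nothing is given in the sources used here. Positions are counted from 1 on mm10.

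Genes came from RefSeq for GRCm38.p6, the assembly of mm10 (49997 genes). Left out were 340 genes that start below 3 Mb on an autosome or X, where no peak lies, genes off the chromosomes, and the mitochondrial peak (22755 peaks kept). A peak was counted by its midpoint. Genes were matched by 10 classes of body length and 5 classes of neighbour number, each gene itself left out. Gaps were compared with gaps between neighbouring protein-coding genes within 1.5 times the length. Genes were linked when under 2 Mb apart. There was no replicate to test, so all comparisons are descriptions without p-values; intervals cover only the counting of genes. The genes, lists and alternatives were chosen with earlier results of these data known. Named genes are those with most and fewest peaks in each subfamily, all linked genes, and all with a body or gene-end peak or in the top or bottom 10% of its matched genes. Alternatives changed the peak assignment, the peaks used, the flank, the gene-end window and the matching (with chromosome, 2 neighbour classes were used). Counting was tested on simulated data. Python 3.11.15, numpy 2.4.6, pandas 2.3.3, scipy 1.17.1 and matplotlib 3.10.9 were used.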

Additional observations from a re-analysis of the deposited data

How the results depend on the processing

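The number of genes with a peak in the domain was 47, the same with any overlap or with peaks under 500 bp apart merged, 37 with only the peaks of median width or more, 41 and 50 with flanks of 50 and 250 kb, and 26 with a flank of 10 kb. The share of all protein-coding genes went from 81.8% to 67.0% with the wide peaks. It was 74.1%, 89.6% and 50.8% with flanks of 50, 250 and 10 kb. With the 10 kb flank the members' share, 49.1%, was thus not above that of all genes. The 31 genes above their matched medians became 21 to 31 under other peak choices and flanks, 15 with matching on length only, and 18 with matching on length, neighbours and chromosome, where as few as 16 genes were matched. Across those peak choices and flanks 33.8% to 46.2% of all protein-coding genes lay above theirs. With matching on length only and also on chromosome the shares were 43.0% and 42.1%. With linked genes counted once 24 of 43 loci lay above. The 5 genes in the top 10% became 3 with a flank of 50 kb, 1 with a flank of 10 kb, 3 with matching on length only and 3 with matching also on chromosome. The 4 genes with a gene-end peak became 2 with wide peaks, 1 within 500 bp of an end and 12 within 2.5 kb. Over all protein-coding genes the share with such a peak was 12.0% in the main setting and 7.48%, 7.83% and 21.2% in these. The 26 genes with peaks on one side only became 17 with a flank of 250 kb and 25 or 26 otherwise, alternatives chosen after seeing the data. The genes were not all the same: 17 of the 25 with wide peaks and 19 of the 26 with a flank of 50 kb were among the main 26. The share of all protein-coding genes also rose, from 26.6% to 31.3% with wide peaks and 34.3% with a flank of 50 kb. A smaller window holds fewer peaks by construction. For the matchings the cause was not tested. No paired analysis was possible because the list ties no peak to a sample. Depth is unknown, so a region without a listed peak is not shown to lack CTCF.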

Other observations

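The peaks of the members' domains had a median width of 276 bp, against 262 bp over all peaks. Of the 169, 10 were at least 500 bp wide (5.92%, against 4.05% of all peaks), and 2 were at least 1000 bp wide (1.18%, against 0.259%). The widest, of 1315 bp, stood in the body of Nkx2-2, 2.0 kb from its lower end, and the other, of 1036 bp, stood 46.4 kb below Lhx3. These genes were singled out after their values were seen.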
